A study of Mus musculus with 12 samples.

Results

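The NRF2 pathway is the main transcriptional defence of cells against oxidants. In resting cells the adaptor KEAP1 holds the transcription factor NRF2, encoded by Nfe2l2, and passes it to degradation. When oxidants or electrophiles modify KEAP1, NRF2 escapes, pairs with a small MAF protein and binds antioxidant response elements (AREs) in front of genes for heme breakdown, glutathione synthesis and the thioredoxin system. In lungs exposed to lipopolysaccharide (LPS), a component of bacterial outer membranes that induces acute lung injury (ALI) in mice, these genes act beside the superoxide dismutases, which turn superoxide into hydrogen peroxide. Of these dismutases, SOD2 of the mitochondria is also a well known target of NF-kB.

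From a table of 55414 genes in whole mouse lung, 10 genes of this defence were taken by symbol, namely Hmox1, Nfe2l2, Nqo1, Gclc, Gclm, Srxn1, Txnrd1, Slc7a11, Sod2 and Sod3. All 10 were found, and all 10 passed the filter on low values, a TPM (transcripts of each gene, scaled by length, to a common total per library) of at least 1 in at least 6 of 12 libraries, as did 15148 genes in all. The lungs came from 12 mice on the C57BL/6J background that were instilled with LPS, and were taken on day 4. In 6 IL-10 B-KO mice, floxed Il10 alleles (Il10 flox/flox) had been combined with Mb1-Cre, which is expressed from the Cd79a locus and acts in the B lineage from its early stages on and disrupts the Cd79a allele that carries it. In 6 IL-10 B-WT mice Il10 was not deleted in B cells, and whether they carried floxed alleles or Cre is not given in the sources used here. Their lungs are called knockout and wild-type lungs here. Mice without LPS were not analysed here, so that the comparison is between genotypes under LPS and no value shows a response to LPS itself. Age and sex are not given in the sources used here. Each lung was 1 library and 1 replicate.

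The TPM of each library summed to between 991646 and 994430, and between 21380 and 24138 genes were above 0. TPM keeps no read depth, so that the counting error behind each value is unknown. Cd79a, a B cell receptor subunit, was at 15.3 TPM or more in every wild-type lung and at 5.73 TPM or less in every knockout lung. Il10 was at or below 0.88 TPM in every lung and did not separate the genotypes (two-sided exact permutation test, p = 0.745, n = 6). Markers of alveolar type 2 cells summed to 3321 TPM or more in every lung. On the first principal component of all tested genes, which held 49.0% of the variance, a pair of lungs stood apart from their genotypes. IL-10 B-WT replicate 1 was at 57.0, whereas the other wild-type lungs were at or below -12.2, and IL-10 B-KO replicate 2 was at -26.5, whereas the other knockout lungs were at or above 23.9. The B and plasma cell markers of these lungs summed to 97.7 and 69.9 TPM, between the other wild-type lungs (359 TPM or more) and the other knockout lungs (45.2 TPM or less). These lungs also have no point for most genes in the paper's chemokine plot, for which no reason is given in the sources used here. The results are therefore given for all 12 lungs, which is the main result, and for the 10 others as a description.

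The upstream sequence of 4 of the genes is shown because it holds the letters of the ARE, the element that NRF2 binds, or of its relative with an AP-1 site. RefSeq promoter windows on GRCm38.p6, from 250 bases before a gene's start to 50 after it, were found for 7 of the 10 genes in 9 windows (3 of them for Txnrd1), whereas Hmox1, Gclc and Sod3 had no entry. Both strands were searched for the ARE core TGACNNNGC, for the AP-1 site TGANTCA and for TGANTCAGC, an AP-1 site followed by GC, so that each match of the last is also one of the AP-1 site. The stretches printed are those with a match upstream of the start, 5′ to 3′ on the gene's strand, with 40 bases on either side where the window allows, and capitals mark the matches. A core on the opposite strand reads as its reverse complement, as in Gclm and Txnrd1.
Nfe2l2, chr2:75704855-75704913, minus strand: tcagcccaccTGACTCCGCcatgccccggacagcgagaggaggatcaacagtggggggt
Srxn1, chr2:152105382-152105523, plus strand: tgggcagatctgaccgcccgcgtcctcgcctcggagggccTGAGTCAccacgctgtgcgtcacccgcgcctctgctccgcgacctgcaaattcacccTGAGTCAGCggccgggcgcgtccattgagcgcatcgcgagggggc
Gclm, chr3:122245383-122245471, plus strand: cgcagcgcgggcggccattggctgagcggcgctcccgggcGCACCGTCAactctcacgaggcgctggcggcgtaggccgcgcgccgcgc
Txnrd1, chr10:82859074-82859162, plus strand: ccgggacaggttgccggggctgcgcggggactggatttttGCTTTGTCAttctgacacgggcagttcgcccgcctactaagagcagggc
The ARE core starts 240 bases before the start in Nfe2l2, 134 in Gclm and 92 in Txnrd1, and it lies 29 bases after the start in Srxn1, outside the stretch shown. In Srxn1 the AP-1 site was found 102 and 45 bases before the start, and the second of these is followed by GC. Among 32851 promoter windows of the same length, the ARE core was present in 12.4%, the AP-1 site in 7.81% and the AP-1 site with GC in 1.19%, against 4, 1 and 1 of the 9 windows here. In GENCODE M21 the Nfe2l2 stretch falls in an exon of the divergent gene E030042O20Rik, the Txnrd1 stretch falls between exons inside Txnrd1, the Gclm stretch overlaps no gene, and the last 8 bases of the Srxn1 stretch fall in its own first exon. A match of letters is a description of the sequence, not a measured binding site.

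On average, 8 of the 10 genes were higher in knockout lungs than in wild-type lungs and Nqo1 and Sod3 were lower, but 0 of the 10 passed an adjusted p of 0.05. The comparison was made with limma on log2(TPM + 1), and p-values were adjusted by Benjamini-Hochberg over all 15148 genes, of which 79 passed (0.522%). At an unadjusted p of 0.05, Hmox1, Gclc, Gclm and Srxn1 were on the higher side, where 6.83% of all tested genes passed, and Sod3 was on the lower side, where 5.71% did. Exact permutation tests of single genes (two-sided, n = 6, not adjusted over the 10 genes) gave p of 0.0216 for Sod3, 0.0325 for Srxn1, 0.0346 for Gclc and 0.0411 for Hmox1. The same test gave 0.0541 for Gclm, 0.0931 for Sod2, 0.123 for Txnrd1, 0.139 for Nfe2l2, 0.186 for Slc7a11 and 0.418 for Nqo1. The median log2 fold change of the 10 genes was 0.68, against 0.10 over all tested genes. With all 12 lungs, the genotypes overlapped for each of the 10 genes, as they did for all but 1.02% of tested genes.

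**Figure D1:**
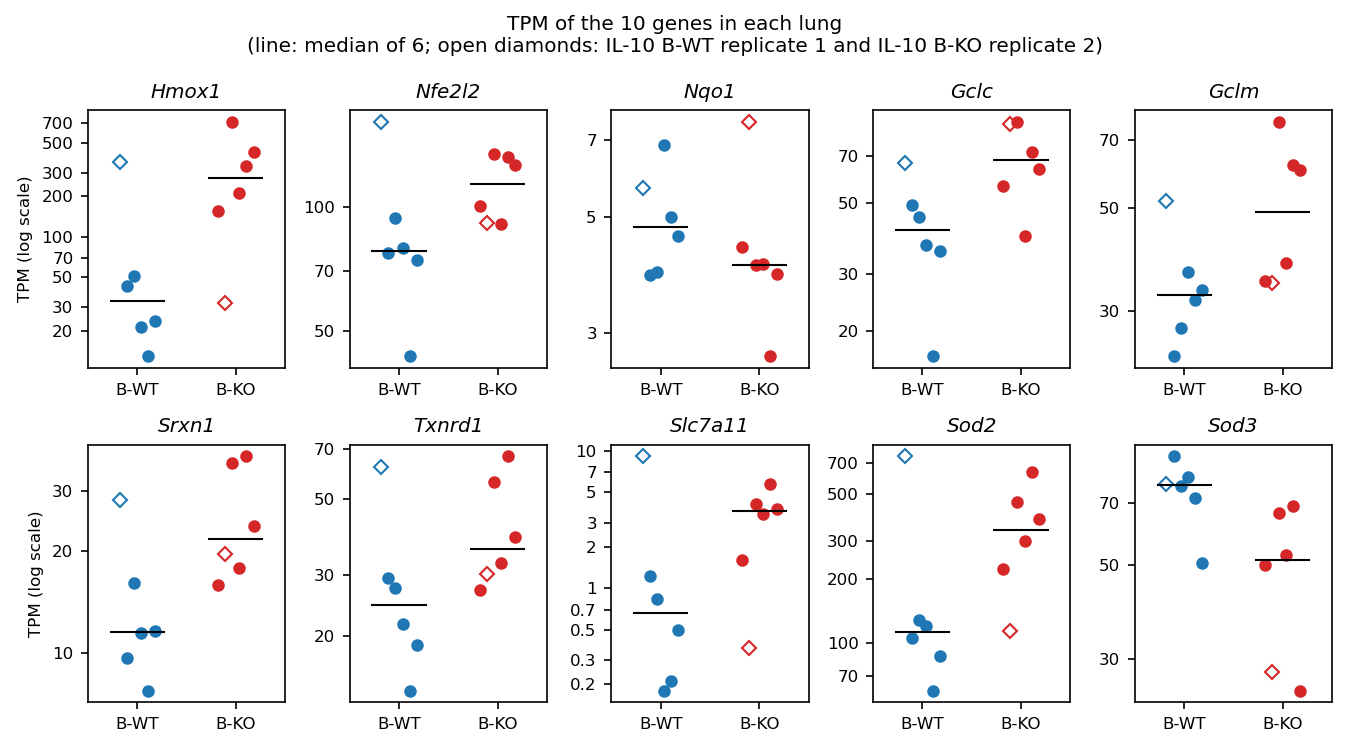
TPM of each of the 10 genes (log scale, one panel per gene) in 6 wild-type (IL-10 B-WT, blue) and 6 knockout (IL-10 B-KO, red) lungs, with the median of each genotype as a line and open diamonds for the pair of lungs that stood apart (IL-10 B-WT replicate 1 on the left and IL-10 B-KO replicate 2 on the right). For Hmox1, Slc7a11 and Sod2 the filled points of the genotypes do not overlap and the diamonds lie on the other genotype's side, whereas for Nqo1 and Sod3 the knockout medians are the lower ones.

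IL-10 B-WT replicate 1 was the highest lung of its genotype for 8 of the 10 genes, and IL-10 B-KO replicate 2 was the lowest of its genotype for 4. With these lungs left out, 7 of the 10 genes (Hmox1, Nfe2l2, Gclm, Srxn1, Txnrd1, Slc7a11 and Sod2) passed an adjusted p of 0.05 and all 7 had higher values in knockout lungs. Of all tested genes, 15.2% passed in this smaller set, 10.3% as higher and 4.94% as lower. Hmox1, Slc7a11 and Sod2 then did not overlap between genotypes, which was also the case for 13.3% of all tested genes. Of these, Slc7a11 had passed the filter on low values mainly through knockout lungs. Leaving out IL-10 B-WT replicate 1 alone gave 3 of the 10 genes (Hmox1, Srxn1 and Sod2), where 5.02% of all tested genes passed, and leaving out IL-10 B-KO replicate 2 alone gave 0, where 0.878% did. Lungs that lie with the other genotype draw the groups together, so that leaving them out lowers p-values by its own construction. The adjusted p-values of the 10 lungs are therefore too small and are given here and below as a description of these lungs, not as tests.

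**Figure D2:**
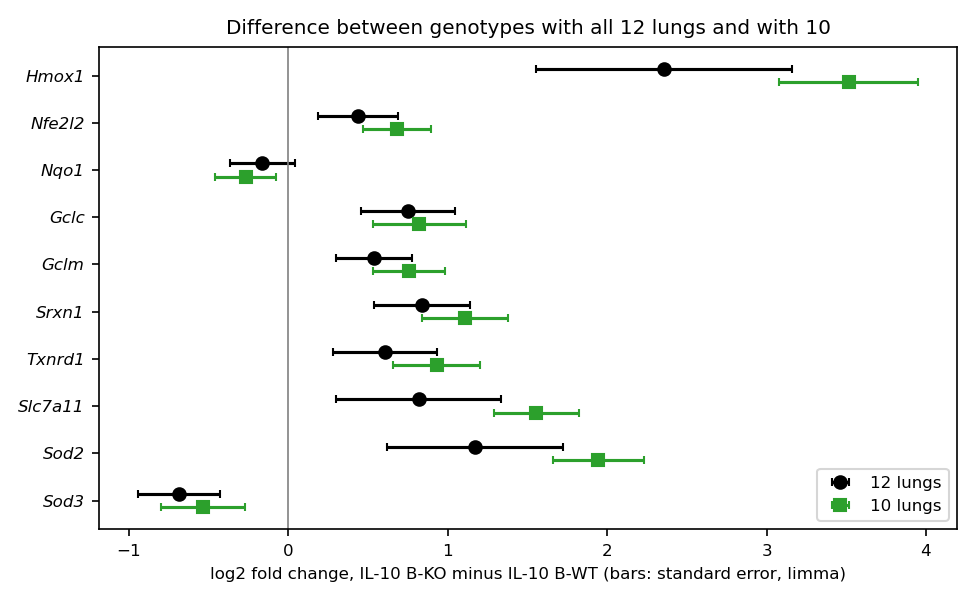
Log2 fold change of each of the 10 genes, IL-10 B-KO minus IL-10 B-WT, on the log2(TPM + 1) scale with its standard error from limma, with all 12 lungs (black circles) and without the pair of lungs that stood apart (green squares). Hmox1 lies farthest to the right in both (2.36 and 3.52), 8 genes lie right of 0, and Nqo1 and Sod3 lie left of it in both.

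Nfe2l2 (ENSMUSG00000015839, chromosome 2, 75675513 to 75704641 in GRCm38, minus strand) encodes NRF2 itself, whose activity is set mostly by the stability of the protein rather than by its transcript. Its transcript ranged from 43.5 to 160 TPM in wild-type lungs, with a median of 78.3, and from 91.01 to 134 TPM in knockout lungs, with a median of 113. IL-10 B-WT replicate 1 held the highest value of all 12 lungs, and without it the SD of the wild-type lungs was 18.5 TPM in place of 39.0 TPM, beside 20.4 TPM in the knockout lungs. The means were 88.1 and 112 TPM and the log2 fold change was 0.43 ± 0.25 (SE, n = 6), which did not pass in limma (adjusted p = 0.475). Without the pair of lungs it was 0.68 (limma, adjusted p = 0.0485).

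Hmox1 (ENSMUSG00000005413, chromosome 8, 75093621 to 75100589, plus strand) encodes heme oxygenase 1, the inducible enzyme that breaks heme down to biliverdin, iron and carbon monoxide. It had the largest log2 fold change of the 10 genes. In wild-type lungs it was at 358, 43.2, 51.1, 21.3, 12.9 and 23.4 TPM in replicates 1 to 6. In knockout lungs it was at 155, 32.2, 713, 211, 335 and 427 TPM in replicates 1 to 6. Thus 5 knockout lungs lay above 5 of the 6 wild-type lungs, and the exceptions were IL-10 B-WT replicate 1, which lay above 4 knockout lungs, and IL-10 B-KO replicate 2, which lay below IL-10 B-WT replicates 1, 2 and 3. The mean was 85.0 ± 134 TPM (SD, n = 6) in wild-type and 312 ± 240 TPM (SD, n = 6) in knockout lungs, a log2 fold change of 2.36 ± 0.80 (SE) that did not pass the correction (limma, adjusted p = 0.298). The exact permutation test of this gene alone gave p = 0.0411 (two-sided, n = 6), where the smallest p that 6 lungs against 6 allow is 0.00216. Without the pair of lungs the log2 fold change was 3.52 (limma, adjusted p = 0.00117), with a 95% interval from 2.57 to 4.46.

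Gclc (ENSMUSG00000032350, chromosome 9, 77754535 to 77794485, plus strand) and Gclm (ENSMUSG00000028124, chromosome 3, 122245557 to 122270732, plus strand) encode the catalytic and the modifier subunit of glutamate-cysteine ligase, the rate-limiting enzyme of glutathione synthesis. Gclc ranged from 16.7 to 66.3 TPM in wild-type lungs (median 41.1) and from 39.3 to 89.1 TPM in knockout lungs (median 67.6). Its highest values were in IL-10 B-KO replicates 3 and 2, so that for this gene IL-10 B-KO replicate 2 was not on the wild-type side. Its log2 fold change was 0.75 ± 0.29 (SE, n = 6) with all lungs (limma, adjusted p = 0.343). In the 10 lungs it was 0.82, which did not pass either (limma, adjusted p = 0.0789). Gclm ranged from 24.0 to 51.7 TPM (median 32.5) in wild-type and from 34.5 to 76.4 TPM (median 49.0) in knockout lungs, and IL-10 B-KO replicates 3, 5 and 6 lay above every wild-type lung. The log2 fold change of Gclm was 0.54 ± 0.24 (SE, n = 6) with all lungs (limma, adjusted p = 0.381) and 0.76 in the 10 lungs (limma, adjusted p = 0.0424).

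Slc7a11 (ENSMUSG00000027737, chromosome 3, 49892526 to 50443614, minus strand) encodes xCT, the transporter that imports the cystine from which glutathione is made. It had the lowest level of the 10 genes. In wild-type lungs it was at 9.08, 1.22, 0.83, 0.18, 0.21 and 0.50 TPM in replicates 1 to 6. In knockout lungs it was at 1.61, 0.37, 4.12, 3.49, 5.72 and 3.74 TPM in replicates 1 to 6. Among wild-type lungs only replicates 1 and 2 reached 1 TPM, whereas all knockout lungs but replicate 2 did. Slc7a11 thus passed the filter on low values mainly through knockout lungs, so that its separation is a description only. The highest value of all was in IL-10 B-WT replicate 1. Without it and IL-10 B-KO replicate 2 the highest wild-type lung lay below the lowest knockout lung. On the log2(TPM + 1) scale, which understates changes at such low values, the log2 fold change was 0.82 ± 0.52 (SE, n = 6) with all lungs (limma, adjusted p = 0.504), and with a pseudocount of 0.1 in place of 1 it was 1.48 (adjusted p = 0.465). It was 1.56 in the 10 lungs (limma, adjusted p = 0.00344).

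Srxn1 (ENSMUSG00000032802, chromosome 2, 152105516 to 152111376, plus strand) encodes sulfiredoxin, which repairs overoxidized peroxiredoxins, and Txnrd1 (ENSMUSG00000020250, chromosome 10, 82833951 to 82897712, plus strand) encodes the cytosolic thioredoxin reductase. Srxn1 ranged from 7.71 to 28.3 TPM in wild-type lungs (median 11.5) and from 15.9 to 38.1 TPM in knockout lungs (median 21.6). Apart from IL-10 B-WT replicates 1 and 3, every wild-type lung lay below every knockout lung. The log2 fold change of Srxn1 was 0.84 ± 0.30 (SE, n = 6) with all lungs (limma, adjusted p = 0.322) and 1.11 in the 10 lungs (limma, adjusted p = 0.0187). Txnrd1 ranged from 13.9 to 62.3 TPM (median 24.6) and from 27.1 to 66.7 TPM (median 35.7). IL-10 B-WT replicate 1 was near the top of all 12 lungs, below IL-10 B-KO replicate 5 alone. The log2 fold change of Txnrd1 was 0.61 ± 0.33 (SE, n = 6) with all lungs (limma, adjusted p = 0.454) and 0.93 in the 10 lungs (limma, adjusted p = 0.0388).

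Nqo1 (ENSMUSG00000003849, chromosome 8, 107388225 to 107403206, minus strand) encodes the quinone reductase that is commonly used as a reporter of NRF2 activity. Unlike the genes above, it had a negative log2 fold change. It was at 5.68, 3.87, 3.93, 6.86, 4.99 and 4.59 TPM in replicates 1 to 6 of IL-10 B-WT. It was at 4.38, 7.59, 4.05, 4.06, 2.71 and 3.89 TPM in replicates 1 to 6 of IL-10 B-KO. The genotypes overlapped over most of their range, and the highest value was in IL-10 B-KO replicate 2. The log2 fold change was -0.16 ± 0.20 (SE, n = 6), with a 95% interval from -0.60 to 0.27 (limma, adjusted p = 0.731). In the 10 lungs it was -0.27, with an interval from -0.69 to 0.15 (limma, adjusted p = 0.367). Nqo1 and the markers of club and ciliated cells shared their highest knockout lung, IL-10 B-KO replicate 2, where these markers summed to 104836 TPM against at most 30132 TPM in the other knockout lungs. The wild-type lungs did not share this order, since IL-10 B-WT replicate 1 had their lowest marker sum (23215 TPM) and an Nqo1 value of 5.68 TPM, below replicate 4 alone. Most of the sum in IL-10 B-KO replicate 2 came from the club cell gene Scgb1a1 (92710 TPM). The part of these cells in the Nqo1 values was not tested.

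Sod2 (ENSMUSG00000006818, chromosome 17, 13006846 to 13040063, plus strand) encodes the manganese superoxide dismutase of mitochondria, and Sod3 (ENSMUSG00000072941, chromosome 5, 52363791 to 52371418, plus strand) the copper and zinc dismutase that is secreted and held in the extracellular matrix. Their log2 fold changes had opposite signs. Sod2 was at 751, 105, 127, 120, 59.5 and 87.0 TPM in replicates 1 to 6 of IL-10 B-WT. Across replicates 1 to 6 of IL-10 B-KO it was at 223, 114, 459, 299, 632 and 380 TPM. IL-10 B-WT replicate 1 was the highest of all 12 lungs, whereas the other 5 wild-type lungs were at or below 127 TPM and 5 of the 6 knockout lungs were at or above 223 TPM. The log2 fold change of Sod2 was 1.17 ± 0.55 (SE, n = 6) with all lungs (limma, adjusted p = 0.405) and 1.95 in the 10 lungs (limma, adjusted p = 0.00198).

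Sod3 was at 77.3, 90.0, 76.6, 80.3, 71.9 and 50.3 TPM in replicates 1 to 6 of IL-10 B-WT. Across replicates 1 to 6 of IL-10 B-KO it was at 49.96, 27.9, 66.2, 52.7, 68.9 and 25.2 TPM. None of the knockout lungs reached the wild-type median of 76.98 TPM, and 3 of them lay below every wild-type lung. The log2 fold change was -0.69 ± 0.26 (SE, n = 6). It did not pass the correction in all lungs (limma, adjusted p = 0.328), and in the exact permutation test of this gene alone p was 0.0216 (two-sided, n = 6). Sod3 was the only one of these genes besides Nqo1 for which IL-10 B-WT replicate 1 was not the highest lung of its genotype. The difference did not grow when the pair of lungs was left out (-0.54, limma, adjusted p = 0.190).

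Within a lung, Sod2 and Sod3 can be compared directly because TPM is scaled by gene length. The Sod2 to Sod3 ratio was 9.71, 1.17, 1.66, 1.49, 0.827 and 1.73 in replicates 1 to 6 of IL-10 B-WT, and 4.46, 4.10, 6.93, 5.68, 9.17 and 15.1 in replicates 1 to 6 of IL-10 B-KO. All knockout lungs, replicate 2 included, thus lay above every wild-type lung but replicate 1. Hmox1 was set against Hmox2, the constitutive heme oxygenase, in the same way. Its ratio ranged from 0.479 to 4.75 in wild-type lungs (median 0.824) and from 0.854 to 9.65 in knockout lungs (median 4.40), with IL-10 B-WT replicate 1 as the only lung of its genotype above 1.06. In contrast, the Gclc to Gclm ratio had nearly equal medians, 1.17 in wild-type and 1.16 in knockout lungs. These ratios were chosen after the values of single genes were seen and were not tested.

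**Figure D3:**
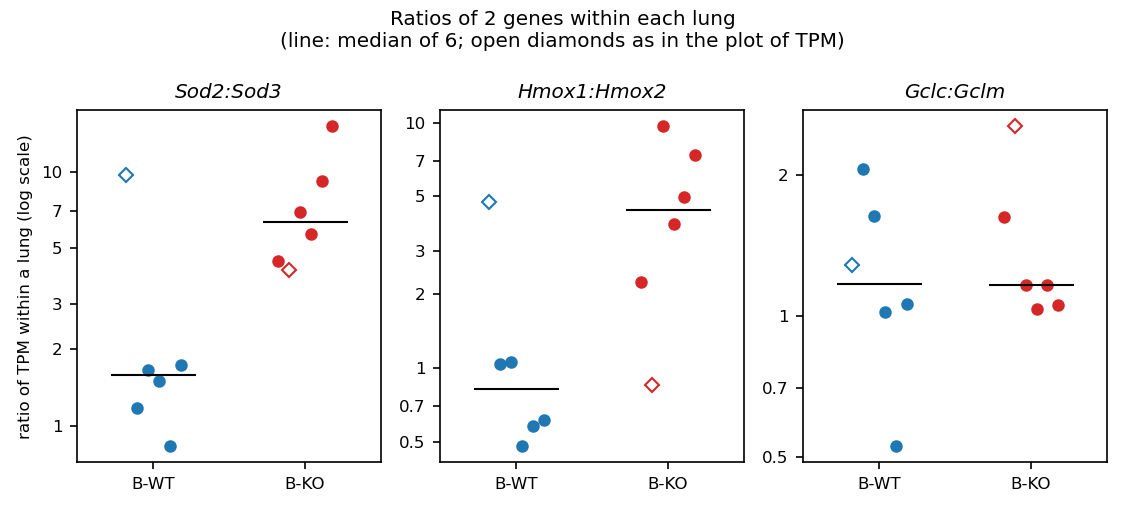
Ratio of TPM within each lung (log scale) for Sod2 to Sod3, Hmox1 to Hmox2 and Gclc to Gclm, in 6 wild-type (IL-10 B-WT, blue) and 6 knockout (IL-10 B-KO, red) lungs, with the median as a line and open diamonds for the pair of lungs that stood apart (IL-10 B-WT replicate 1 on the left and IL-10 B-KO replicate 2 on the right). The Sod2 to Sod3 ratio of all 6 knockout lungs (4.10 or more) lies above that of 5 wild-type lungs (1.73 or less), whereas the Gclc to Gclm ratios overlap.

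The order of the 10 levels also differed between the genotypes, in the place of Hmox1 and in the order of Sod3 and Gclc. By median TPM, the order in wild-type lungs was Sod2, Nfe2l2, Sod3, Gclc, Hmox1, Gclm, Txnrd1, Srxn1, Nqo1 and Slc7a11. In knockout lungs Hmox1 stood second (median 273 TPM) behind Sod2 (median 340 TPM), followed by Nfe2l2, Gclc, Sod3 and Gclm, and the last 4 places were the same. Neighbours in these orders mostly overlapped in their ranges. The exceptions were Srxn1 above Nqo1 in both genotypes and Nfe2l2 above Gclc in knockout lungs.

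Within a genotype, 8 of the genes varied in the same sense from lung to lung, and none of the pairs with Nqo1 or Sod3 passed the test. The genotype mean was subtracted from log2(TPM + 1), and Pearson's r and Spearman's rho were calculated over the 12 lungs for all 45 pairs, with 100000 permutations of lungs within genotype. Of the 45 pairs, 24 passed a Benjamini-Hochberg adjusted permutation p of 0.05 for r and 23 did so for rho. All 24 were among the 28 pairs that involve neither Nqo1 nor Sod3, for which r ranged from 0.33 (Gclc and Gclm) to 0.96 (Slc7a11 and Sod2). For Slc7a11 and Sod2, r was 0.957 and rho was 0.909 (n = 12, adjusted permutation p = 0.0023 and 0.0090), and r was 0.752 in the 10 lungs. Hmox1 and Slc7a11 had an r of 0.940 and a rho of 0.937 (adjusted permutation p = 0.0023 and 0.0049). The 28 coefficients stayed positive in the 10 lungs, with genotype means taken from these lungs (0.28 to 0.94). Without the 2 lungs farthest from the median for the first gene of a pair, they were positive as well (0.32 to 0.86). There the genotype means of all 12 lungs were kept, so that a part of the genotype difference can remain in these coefficients. Nqo1 had coefficients from -0.46 to 0.10 and Sod3 from -0.46 to 0.42 with the other genes, and 0 of their 9 pairs each passed. All these genes were measured in the same libraries, so that a lung's cell makeup is shared by all of its values. The share of all pairs of tested genes that would pass the same test was not calculated, and the first principal component held 49.0% of the variance. Whether the counts of pairs are particular to these genes therefore cannot be told.

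**Figure D4:**
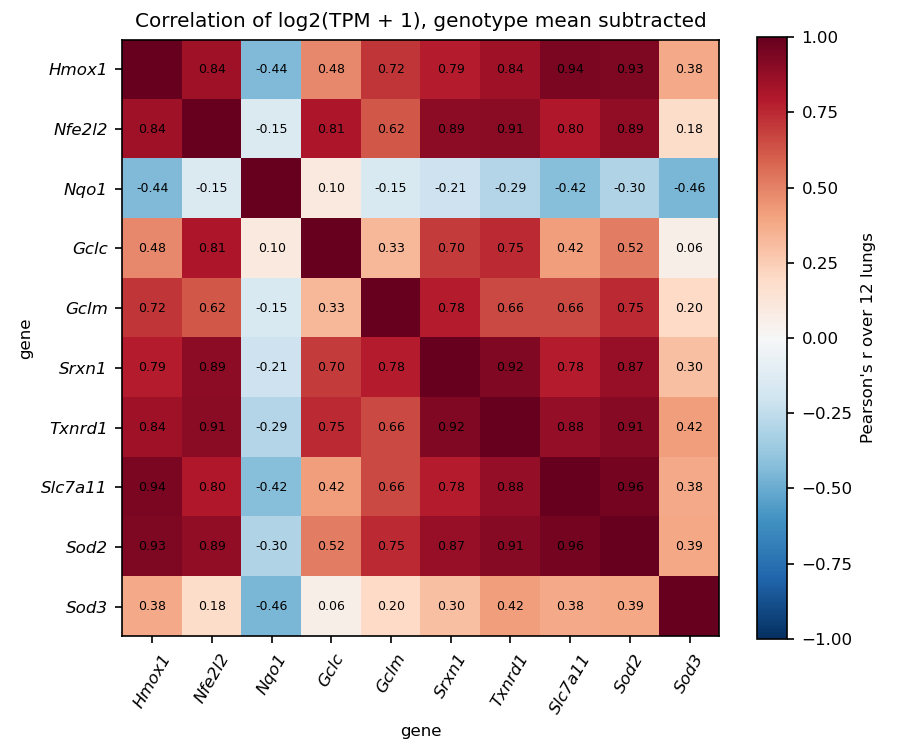
Pearson's r for each pair of the 10 genes over 12 lungs, calculated from log2(TPM + 1) after the mean of the genotype was subtracted, with red for positive and blue for negative values. The coefficients among the 8 genes other than Nqo1 and Sod3 are all positive (0.33 to 0.96), and the rows of Nqo1 and Sod3 are pale or blue, between -0.46 and 0.42.

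The genes with the most similar pattern were looked up for each gene as the 3 other tested genes with the highest r on the same values, as a description over 12 lungs. For Hmox1 they were Eno1, Pgam1 and Slco4a1 (r = 0.989 for each), of which Eno1 and Pgam1 are glycolytic enzymes. For Sod2 they were C1rl (r = 0.992), the peroxiredoxin Prdx5 (r = 0.992) and Plod3 (r = 0.989). Slc7a11 was followed most closely by the interleukin receptor-associated kinase Irak3 (r = 0.986), Gpr84 (r = 0.982) and Bst1 (r = 0.980). Those nearest to Nfe2l2 were Vill, Stx6 and Atp6ap1 (r = 0.979 to 0.981), and those nearest to Txnrd1 were Ripk1, Mapre1 and Usp25 (r = 0.979 to 0.987). Srxn1 was most like Xpnpep1, Gm20234 and Ptpn12 (r = 0.959 to 0.960), Gclc most like Ank3, Tax1bp1 and Trap1 (r = 0.952 to 0.978), and Gclm most like Msantd3, Lpl and Zdhhc9 (r = 0.900 to 0.949). Sod3 had its closest partners in Fxyd6 (r = 0.924), Pcolce (r = 0.918), which enhances procollagen processing, and Srpx (r = 0.905). Nqo1 had the weakest ones, Tbata, Reep6 and Gm46603 (r = 0.830 to 0.852).

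Related genes were examined in 7 lists, and 0 genes of any list passed an adjusted p of 0.05 with all 12 lungs. Over all tested genes the shares to read the counts against are those above, 6.83% higher and 5.71% lower at an unadjusted p of 0.05, and 10.3% higher and 4.94% lower by adjusted p in the 10 lungs.

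Among 11 genes of NRF2 control (KEAP1 and its ligase, small MAF partners, the competing repressor BACH1), 1 was higher at an unadjusted p of 0.05 and 0 were lower, with a median log2 fold change of 0.17. Mafg, a small MAF partner of NRF2, had a mean of 15.4 TPM in wild-type and 23.3 TPM in knockout lungs (log2 fold change 0.65, limma, adjusted p = 0.337), and Bach1 had a log2 fold change of 0.52. At the other end were Mafk (-0.21) and Btrc (-0.16). Mafg and Bach1 were the genes of this list that passed in the 10 lungs, both as higher.

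Of 28 other NRF2 targets, 8 were higher and 2 lower at an unadjusted p of 0.05, with a median log2 fold change of 0.35, and 12 were higher and 4 lower by adjusted p in the 10 lungs. The aldo-keto reductase Akr1b8 had the largest log2 fold change (1.44), from a mean of 18.8 TPM in wild-type to 50.8 TPM in knockout lungs (limma, adjusted p = 0.236). Gsr, the glutathione reductase, followed with 1.06, from 42.3 to 87.4 TPM (limma, adjusted p = 0.251). In contrast, the glutathione transferases Gstm1 (-1.14, from 515 to 234 TPM, limma, adjusted p = 0.352) and Gsta3 (-0.68) were lowest. In the 10 lungs all 4 of these passed, Akr1b8 and Gsr as higher, and Gstm1 and Gsta3 as lower. Transferase genes are a family of close paralogs, between which reads can be split uncertainly.

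Among 17 other superoxide and peroxide enzymes, 2 were higher and 0 lower at an unadjusted p of 0.05, with a median of 0.18 that fell to -0.01 under quantile normalization. The glutaredoxin Glrx (1.48) and Prdx5 (1.30) were highest, and Gpx3 (-0.37) and catalase, Cat (-0.30), were lowest. In the 10 lungs 3 passed, all as higher.

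Of 12 genes of heme and iron handling, 5 were higher and 0 lower at an unadjusted p of 0.05 (median 0.60), and 6 were higher in the 10 lungs. Lcn2, which binds bacterial siderophores, had a log2 fold change of 2.51 (median 442 TPM in wild-type and 2867 TPM in knockout lungs, limma, adjusted p = 0.356). The heme scavenger hemopexin, Hpx, had one of 1.16 (mean 3.66 and 10.9 TPM, limma, adjusted p = 0.256). Hamp, which encodes the iron hormone hepcidin, was lowest (-1.19), with a spread that covered most of its range, and Slc48a1 followed with -0.13. Of 10 genes of cystine transport and the amino acid stress response, 1 was higher and 0 lower at an unadjusted p of 0.05 (median 0.20). Trib3 was highest (0.69) and Sesn2 next (0.57), and both were higher in the 10 lungs, whereas Slc3a2, the heavy chain that partners xCT, was at a mean of 186 TPM in wild-type and 180 TPM in knockout lungs (-0.07). Cbs was lowest (-0.36).

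The list with the highest median, 1.17, held the enzymes that produce oxidants. Of its 10 tested genes, 3 were higher and 1 lower at an unadjusted p of 0.05, and 6 were higher in the 10 lungs, while Duox1 did not pass the filter. Cybb, the catalytic subunit of the phagocyte NADPH oxidase, had a log2 fold change of 1.39 (mean 37.6 and 64.0 TPM, limma, adjusted p = 0.415), and its cytosolic subunit Ncf4 one of 1.34. Nox4, an oxidase of structural cells, was lowest (-0.52), followed by Mpo (0.04). Of 13 NF-kB-inducible genes, 1 was higher and 0 lower at an unadjusted p of 0.05 (median 0.76), and 8 were higher in the 10 lungs. The acute phase gene Saa3 (4.74) and Acod1 (2.67), which makes itaconate, were highest, and Nfkbia (-0.02) and Relb (0.31) were lowest. Acod1 had similar means in the genotypes, 93.1 and 85.6 TPM, because IL-10 B-WT replicate 1 alone was at 544 TPM.

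**Figure D5:**
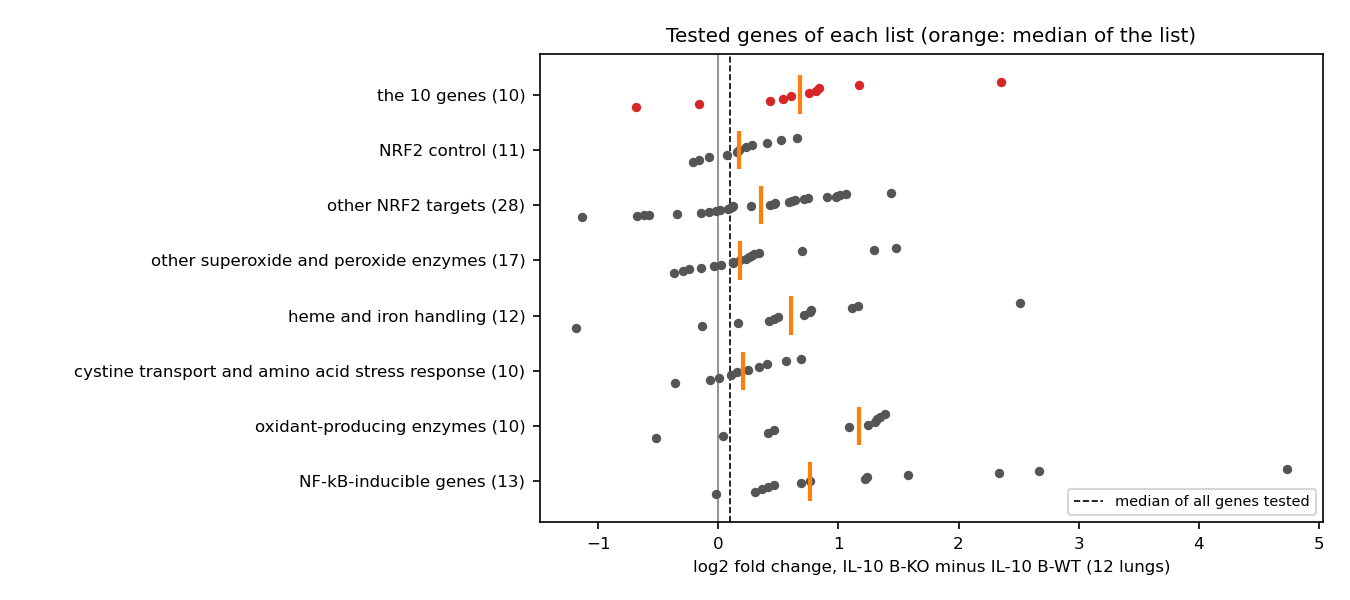
Log2 fold change of each tested gene, IL-10 B-KO minus IL-10 B-WT over 12 lungs, for the 10 genes (red) and 7 related lists (grey, number of genes in brackets), with the median of each list as an orange bar and the median of all tested genes as a dashed line at 0.10. The oxidant-producing enzymes have the median farthest to the right (1.17), and the other NRF2 targets spread from -1.14 to 1.44.

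Markers of several cell types differed in level beside the 10 genes, although only lists of B and plasma cells and of smooth muscle and pericytes held markers past an adjusted p of 0.05 (limma, 12 lungs). In whole lung, fewer cells of a type and less RNA per cell cannot be told apart. All 8 neutrophil markers had positive log2 fold changes (median 1.72), of which 0 passed an adjusted p of 0.05 and 7 an unadjusted one, and their summed TPM ranged from 326 to 2483 in wild-type and from 1093 to 7693 in knockout lungs. IL-10 B-WT replicate 1 held the highest sum of its genotype and IL-10 B-KO replicate 2 the lowest of its own. All 9 markers of monocytes and interstitial macrophages were positive as well (median 1.48, 0 past an adjusted and 8 past an unadjusted p of 0.05), with sums from 203 to 2725 in wild-type and from 473 to 3536 in knockout lungs, and the same lungs were again the highest and the lowest of their genotypes. Hmox1, Gclm, Slc7a11 and Sod2 shared this order of lungs at its ends, with IL-10 B-WT replicate 1 highest and IL-10 B-KO replicate 2 lowest of their genotypes. The part of these cells in the result was not tested.

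Sod3 was lower beside a different set of markers. All 8 markers of smooth muscle and pericytes had negative log2 fold changes (median -0.97), and 2 of them passed an adjusted p of 0.05 in limma. Their sums ranged from 298 to 1103 TPM in wild-type and from 121 to 572 TPM in knockout lungs. Fibroblast markers had a median of -0.17 (3 positive and 4 negative), with sums from 557 to 1798 and from 313 to 1088 TPM, and all 8 endothelial markers were negative (median -0.37). Whether these cells account for the Sod3 difference was not tested. Club and ciliated cell markers had a median of -0.72 (1 positive and 5 negative). Alveolar macrophage markers had a median of 0.28 (7 of 9 positive), alveolar type 2 markers 0.96 (7 of 7), alveolar type 1 markers 0.05 (3 of 6) and T cell markers 0.16 (4 of 6). Red blood cell markers were lower (median -1.29, 5 of 5 negative, 0 past an adjusted p of 0.05), and B and plasma cell markers were lower with 3 of 7 past an adjusted p of 0.05 (median -2.91). No marker of any list was at 0 in all 12 lungs.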

How the data were processed

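Whole-lung RNA of 12 LPS-treated mice (IL-10 B-WT, n = 6, or IL-10 B-KO, n = 6, lungs taken on day 4) was analyzed from 1 table. The authors deposited TPM per gene, 1 column per lung without pooling, calculated with RSEM. Their processing notes also name fastp, HISAT and GRCm38.p5, and versions are not given in the sources used here. Groups came from the genotype labels. No pair of libraries held identical values. TPM is scaled to a common total per library, so that reads behind a value, counting intervals and floors are unknown, and a group of abundant genes lowers all others.

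Differences were calculated with limma 3.58.1 in R 4.3.3 (trend) on log2(TPM + 1) for the 15148 genes that reached a TPM of 1 in 6 or more libraries, with genotype as the only term and Benjamini-Hochberg adjustment, after tests on simulated data. Single genes were compared by exact permutation tests (SciPy 1.17.1). The 10 genes, the 7 lists of related genes and the 12 marker lists were chosen with earlier results of these data known. Named were the 10 genes, the tested genes of each related list with the 2 highest and 2 lowest log2 fold changes, the 3 genes most like each of the 10, and Il10 and Cd79a. Acod1 by lung and the ratios were added after values were seen. Gene coordinates came from GENCODE M21 (GRCm38), matched by ID for 52133 of 55414 genes, and promoters from RefSeq (GRCm38.p6).

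The fit was repeated with quantile-normalized or median-centred values, after TPM were rescaled to exclude immunoglobulin genes, with array quality weights, with a pseudocount of 0.1, with no filter or one of 5 on the mean TPM, with a replicate block, without each lung in turn, and in 10 lungs.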

Additional observations from a re-analysis of the deposited data

Results flagged for a closer look

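In 20 sets of 6 lungs (10 genes in both genotypes), a single lung lay far outside the other 5 in 5 sets by Dixon's criterion on TPM. Its rate of about 1 set in 20 by chance holds for independent sets of normally distributed values. These sets were TPM without a log scale and came from the same lungs, so that the count cannot be read against that rate. Of these, 4 were in IL-10 B-WT replicate 1, with 357.95 TPM of Hmox1, 62.27 TPM of Txnrd1, 9.08 TPM of Slc7a11 and 750.57 TPM of Sod2, each the highest of its genotype. The other was Nqo1 in IL-10 B-KO replicate 2, at 7.59 TPM. The neutrophil marker sums of these lungs were 2483 TPM, the highest of IL-10 B-WT, and 1093 TPM, the lowest of IL-10 B-KO, and their part in these values was not tested.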

How the results depend on the processing

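The direction of each of the 10 genes was the same in all 21 alternatives that gave a value, and the median of their log2 fold changes ranged from 0.52 to 0.88. The count of the 10 genes past an adjusted p of 0.05, 0 with all lungs, was 1 with array quality weights (Hmox1) and 7 in the 10 lungs. Over leave-one-out fits it ranged from 0 to 3, with 3 only without IL-10 B-WT replicate 1. At an unadjusted p of 0.05, 5 of the 10 genes passed with all lungs, 8 with array quality weights and 8 in the 10 lungs, beside 12.5%, 24.9% and 30.9% of all tested genes. Leave-one-out fits gave 3 (without IL-10 B-KO replicate 3, 8.36% of all genes) to 9 (without IL-10 B-WT replicate 1, 25.2%). A mean TPM of at least 5 left out Nqo1 and Slc7a11. Over all tested genes, 79 passed an adjusted p of 0.05, against 8 without a filter, 28 after rescaling without immunoglobulin genes, 44 with quantile normalization, 39 with median centring, 669 with array quality weights, 2305 in the 10 lungs and 19 to 761 with 1 lung left out. Median centring moved the median of all genes from 0.10 to -0.01 and that of the 10 genes from 0.68 to 0.57. With a replicate block, 0 of the 10 genes passed an adjusted p of 0.05, where 45 of all tested genes did. At an unadjusted p of 0.05, 4 of the 10 genes passed in this fit, beside 10.2% of all tested genes. Same-numbered lungs did not deviate together (r from -0.29 to 0.05, 0 of 6 pairs above 0.1), so that these values showed no pairing by number. Whether such lungs shared anything else was not tested.

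Log2 fold changes that moved by over 1.5 times with all lungs were those of Slc7a11 (1.48 with a pseudocount of 0.1), Nfe2l2 (0.27 with quantile normalization), Nqo1 (-0.27 with median centring) and Gclc (0.49 with array quality weights). With 1 lung left out, Slc7a11 reached 1.27 without IL-10 B-WT replicate 1, Nfe2l2 was 0.26 without IL-10 B-WT replicate 5, and Nqo1 was -0.08 without IL-10 B-WT replicate 4, -0.06 without IL-10 B-KO replicate 5 and -0.30 without IL-10 B-KO replicate 2. None of these passed an adjusted p of 0.05.

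The 10 lungs leave out libraries that lie with the other genotype, which lowers p-values over all genes, and why these lungs lie there was not tested. With TPM alone, the depth behind Slc7a11 and Nqo1, the genes at the lowest levels, is unknown.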
